A study of Mus musculus with 12 samples.

Results

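The methylation of Bcl11b and Bcl11a, a pair of related zinc finger transcription factor genes, was examined in progenitor cells from the bone marrow of Dnmt1 mutant and wild-type mice. The regions were chosen by the authors' list of hypomethylated regions: each listed region within 5 kb of either gene, plus every tabulated candidate region between the first and the last of them. A candidate region is a stretch of neighbouring CpG sites for which the authors tabulated a mean level per replicate. By the name of their deposit, these regions came from metilene, a caller of differentially methylated regions. Shares and densities of candidate regions given below are therefore not rates over the whole genome. This gave 34 regions of 107115 in the series, with 33 at Bcl11b (21 listed and 12 unlisted) and 1 listed region at Bcl11a. Membership rests on a lower level in the mutant in these same samples. The differences between genotypes are therefore given as a description. Calls from a fit over all candidate regions are counted below as description too, and are no test of the chosen regions.

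Wild-type BALB/c mice (genotype label wt) were compared with BALB/c mice whose label reads dnmt1-/-. The series describes the mouse allele as a particular Dnmt1 mutation designed from the structure of hypomorphic missense mutants of fish, while the label is written like that of a null genotype. Each genotype had 6 samples, made from 3 replicate numbers with a bisulfite and an enzymatic kit, and the deposited levels had 1 column per number, so n = 3 per genotype throughout. The labels give no age or sex and do not say whether animals were pooled. The cells were lineage-negative (lin-), a gate that removes cells that carry markers of mature blood cells, and those that remain are a mixture. A lower level can mean fewer methylated copies in each cell or a different mixture of cells, which cannot be told apart in these bulk samples. Expression was not analysed here, so the label of the cells could not be checked against marker transcripts.

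DNMT1 restores the methyl group at CpG sites on the newly made strand after DNA replication, so that a cell passes its methylation pattern to its daughters. BCL11B is required for commitment to the T cell lineage and for its maintenance, and is normally off in stem cells and in B and myeloid cells. BCL11A is needed for early lymphoid and B cell development and for stem cell function, and in erythroid cells it silences fetal-type globin genes. Both proteins bind DNA through C2H2 zinc fingers and recruit corepressor complexes.

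Both genes are of like length. Bcl11b (ENSMUSG00000048251.15) spans 93.7 kb on the minus strand of chromosome 12 (107910403 to 108004145), and Bcl11a (ENSMUSG00000000861.15) spans 97.0 kb on the plus strand of chromosome 11 (24076564 to 24173558), by RefSeq on GRCm38.p6, the assembly that mm10 names. No exon annotation was used here, so positions are given as the distance from the centre of a region to the gene start of the RefSeq promoter table. That start lies inside the span, 0.731 kb from its 5′ end at Bcl11b and 4.131 kb at Bcl11a, and a position into a gene is counted downstream from it. The 250 bases before each start are printed because CpG sites are what DNMT1 acts on and because no candidate region overlapped either stretch. They are read 5′ to 3′ on the strand of the gene, with CpG sites in capitals (GRCm38.p6, chr12:108003415-108003664 on the minus strand and chr11:24080445-24080694 on the plus strand).
Bcl11b: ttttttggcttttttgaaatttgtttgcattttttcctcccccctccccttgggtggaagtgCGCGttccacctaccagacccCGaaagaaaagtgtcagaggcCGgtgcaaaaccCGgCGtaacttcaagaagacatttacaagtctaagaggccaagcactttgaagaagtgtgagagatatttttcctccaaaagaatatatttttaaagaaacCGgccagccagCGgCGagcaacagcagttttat
Bcl11a: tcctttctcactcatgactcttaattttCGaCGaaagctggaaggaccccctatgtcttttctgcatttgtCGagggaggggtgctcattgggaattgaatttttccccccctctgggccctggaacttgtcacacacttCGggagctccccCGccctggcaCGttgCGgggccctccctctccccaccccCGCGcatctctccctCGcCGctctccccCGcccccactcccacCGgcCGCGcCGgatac

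The Bcl11b stretch held 9 CpG sites and the Bcl11a stretch 16, or 3.6 and 6.4 per 100 bases. Of 32851 promoter entries in the RefSeq table, 40.3% held at least 9 CpG sites in the same 250 bases and 25.4% at least 16, with a median of 6. The nearest candidate region lay 321 bp away at Bcl11b and 4761 bp away at Bcl11a. The level of these CpG sites themselves was not tabulated, so nothing is known here of their methylation.

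At Bcl11b, methylation was lower in the mutant in every one of its 33 regions, and the 21 listed regions kept on average 60.5% of the wild-type level. Mean levels over the 21 listed regions were 46.6%, 45.2% and 47.1% in mutant replicates 1, 2 and 3 and 76.7%, 76.8% and 76.1% in the wild-type replicates. The replicates of a genotype lay within 2 points of each other in this mean, and the genotypes were far apart. Over all 33 regions the level was 56.0% ± 1.53 in mutants and 80.5% ± 0.555 in wild types (SD, n = 3 each), a difference of -24.5 points. The 12 unlisted regions between the listed ones had 72.9% ± 2.84 and 87.3% ± 1.20, a difference of -14.4 points.

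Mutant replicates lay below all wild-type replicates in 33 of 33 Bcl11b regions, and the same held for 94.3% of all candidate regions. With limma on all candidate regions, 33 of 33 were called lower at an adjusted p under 0.05, against 93.5% of all candidate regions, and 0 were called higher, against 0.0485%. A loss of 20 points or more, in the means of the replicate columns, was seen in 22 of the 33 against 34.4% of all candidate regions, with or without the limma call as a further requirement, and 33.1% of all candidate regions were on the authors' list. Nothing is read from these counts, because the regions were selected on this contrast. The median difference was -27.9 points over the 21 listed Bcl11b regions and -26.1 over all 35439 listed regions, and -13.1 points over its 12 unlisted regions against -13.5 over all unlisted regions.

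**Figure D1:**
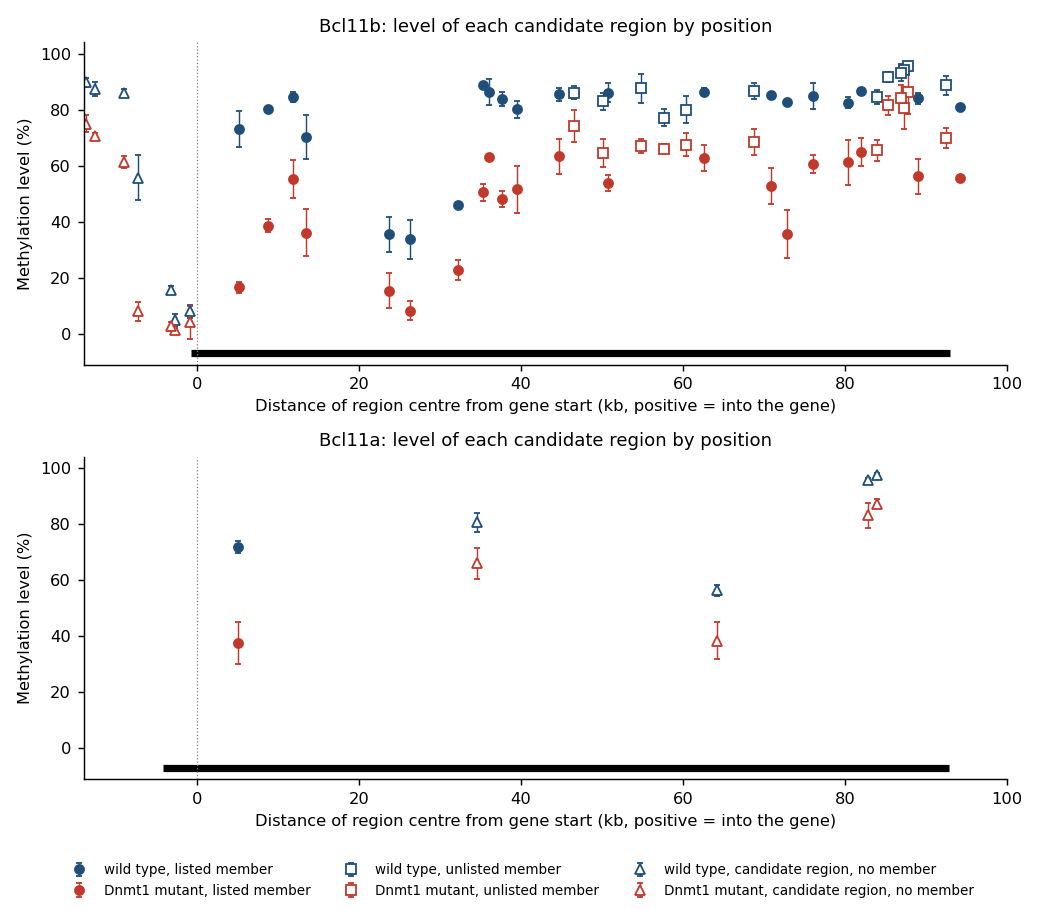
Methylation level (%) of each candidate region against the distance of its centre from the gene start (kb), for Bcl11b above and Bcl11a below. Points are means of 3 replicates with SD bars, blue for wild type and red for the Dnmt1 mutant. Filled circles are listed members, open squares unlisted members, open triangles regions that are no members, and the black bar is the RefSeq gene span. At Bcl11b the wild-type level drops below 50% in 3 neighbouring regions between 23.7 and 32.3 kb.

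The largest difference at Bcl11b was in the chosen region nearest to its start, 5.20 kb into the gene. This region (chromosome 12, 107998070 to 107998363, mm10, 11 CpGs) had levels of 15.0%, 18.8% and 16% in mutants and 80.2%, 67.4% and 71.7% in wild types. Every mutant replicate was under 20% and every wild-type replicate over 65%. The means were 16.6% ± 1.97 and 73.1% ± 6.51 (SD, n = 3 each), so that the mutant kept 22.7% of the wild-type level. Of all listed regions in the series, 0.6% differed by more.

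Next in size was a region 72.8 kb into Bcl11b (107930411 to 107930730, 10 CpGs). Its levels were 43.3%, 36.9% and 26.4% in mutants and 83.4%, 82.9% and 82.2% in wild types, a difference of -47.3 points. The wild-type replicates lay within 2 points, whereas the mutant replicates were spread out, with an SD of 8.52, the largest of any Bcl11b region. A region 8.72 kb into the gene (107994360 to 107995032, 13 CpGs) had 41.2%, 37.6% and 37.1% in mutants and 79.8%, 79.8% and 80.9% in wild types, a difference of -41.6 points with close replicates on both sides.

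In 3 neighbouring regions of Bcl11b the wild type itself was less than 50% methylated. The region 32.3 kb into the gene (107970790 to 107971490, 11 CpGs) had 20.8%, 26.7% and 20.4% in mutants and 46.8%, 46.0% and 45.4% in wild types. The region at 26.3 kb (107976850 to 107977464, 10 CpGs) had 4.67%, 11.4% and 8.56% in mutants and 40.6%, 34.1% and 26.6% in wild types. The region at 23.7 kb (107979557 to 107979872, 12 CpGs) had 21.5%, 15.5% and 9% in mutants and 32.0%, 42.7% and 31.9% in wild types. The genotypes did not overlap in any of these, and the wild-type replicates were more spread in the last 2 (SD 7.01 and 6.22) than in the first (SD 0.702).

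Averaged over these 3 regions, the level was 15.4% ± 2.63 in mutants and 38.5% ± 3.37 in wild types (SD, n = 3 each). The difference was -23.0 points, against -24.6 points over the other 30 Bcl11b regions. The share of the wild-type level that was kept was 40.1% in the 3 and 70.9% in the 30. These sets are unlike, as all 3 were listed but only 18 of the 30. Over all 21 listed Bcl11b regions, these 3 among them, the difference was -30.2 points with 60.5% kept. A listed region with a low wild-type level must lose a large share of it, as the authors' limit was 20 points. Of all listed regions, 3.7% had a lower wild-type level than the highest of the 3, and 1.1% a lower one than the lowest. All 30 other regions had wild-type levels between 70.2% and 95.5%.

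Losses were on average larger in the first 40 kb of Bcl11b than beyond, a limit set after the values were seen. The 11 chosen regions there were all listed, with 36.9% ± 1.06 in mutants and 69.3% ± 1.40 in wild types (SD, n = 3 each), a difference of -32.4 points. Of the 22 chosen regions farther from the start 10 were listed, with 65.5% ± 2.75 and 86.0% ± 0.193, a difference of -20.5 points. The mutant kept 53.3% of the wild-type level in the first group and 76.1% in the second. Listing needed a loss of 20 points, so this contrast is in part one of listed against unlisted regions. The first group also holds the 3 regions with wild-type levels under 50%. The part of position in the losses was not tested.

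The 3 smallest losses at Bcl11b lay close together toward its 3′ end, in unlisted regions between 85.4 and 87.8 kb from the start. The smallest of all (107916331 to 107916642) had 89.6%, 80.3% and 82.1% in mutants and 95.9%, 89.8% and 94.0% in wild types, a difference of -9.24 points. Its highest mutant replicate was 0.240 points below its lowest wild-type replicate, so the genotypes were barely apart. The region with the highest wild-type level (107915418 to 107915894) had 78.0%, 87.1% and 93.3% in mutants and 95.1%, 96.3% and 95.2% in wild types. Here the wild-type replicates were nearly equal, while mutant replicate 1 was 15.3 points below mutant replicate 3.

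CpG numbers were tabulated for listed regions. The listed Bcl11b region with the most CpGs, 23 at 76.1 kb from the start (107926669 to 107927924), had a middling loss. Its levels were 64.2%, 57.5% and 60.1% in mutants and 80.3%, 89.8% and 84.3% in wild types, a difference of -24.2 points. The listed Bcl11b regions had 10 to 23 CpGs and a median density of 1.84 per 100 bp, against 1.78 over all listed regions. Across the 21 regions a higher density went with a larger loss (Spearman's rho = -0.33, Pearson's r = -0.41), and across all 35439 listed regions the relation had the same sign (rho = -0.17, r = -0.19). These are descriptions across regions that share the same libraries.

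The remaining 13 listed Bcl11b regions had wild-type means of 70.2% to 88.7%, mutant means of 36.0% to 64.9% and differences of -38.3 to -21.4 points. The largest of these was 35.3 kb into the gene (107967793 to 107968478, 10 CpGs), with 49.3%, 54.0% and 48.1% in mutants and 90.1%, 88.1% and 88.0% in wild types. Its centre lies 3.0 kb from that of the nearest region with low wild-type methylation, and its wild-type mean of 88.7% was the highest of the listed Bcl11b regions. A region 13.4 kb into the gene (107989689 to 107990245, 13 CpGs), on the other side of the low stretch, had 42.4%, 39.0% and 26.5% in mutants and 78.0%, 62.2% and 70.2% in wild types, the widest wild-type spread of any Bcl11b region (SD 7.88). The remaining 9 unlisted regions had wild-type means of 77.1% to 94.2%, mutant means of 64.5% to 81.5% and differences of -19.0 to -10.1 points. In the authors' deposited table, 7 of the 21 listed Bcl11b regions (33.3%) had a metilene q under 0.05, against 23.3% of all listed regions. The same table holds an adjusted p-value of the authors, under 0.05 in every listed region, whose test its column name does not give.

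**Figure D2:**
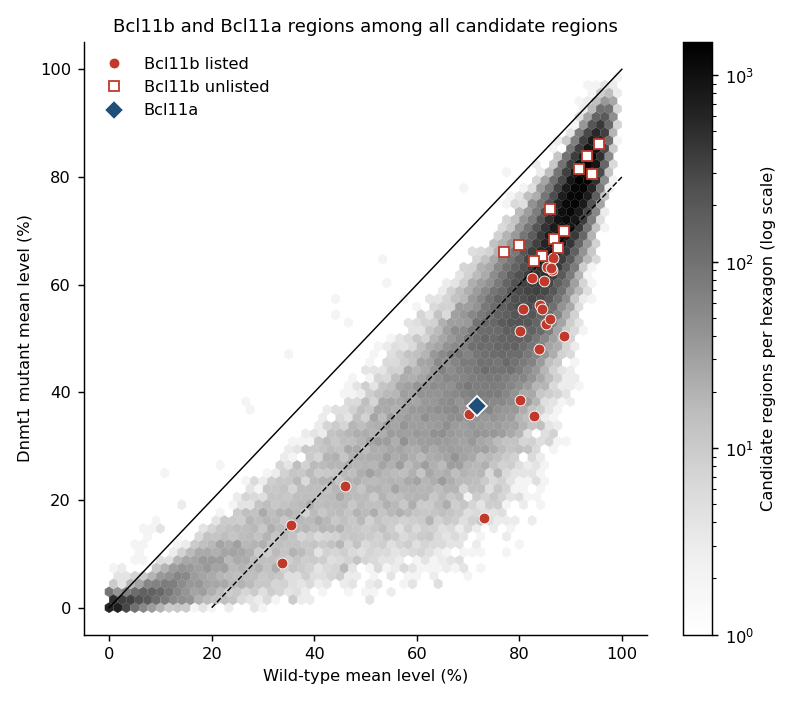
Mean level of each region in the Dnmt1 mutant (%) against its mean level in the wild type (%), each over 3 replicates. Grey hexagons count all 107115 candidate regions on a log scale, red circles are listed and open red squares unlisted Bcl11b regions, and the blue diamond is the Bcl11a region. The solid line marks equal levels and the dashed line a loss of 20 points. All Bcl11b points lie below the solid line, and the 3 with wild-type levels under 50% lie apart from the other 30.

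The spread between replicates was larger in the mutant at 25 of 33 Bcl11b regions, and at 71.2% of all candidate regions. The median SD over the 33 regions was 4.55 points in mutants and 2.48 in the wild type. Over all candidate regions the mean level was 58.3%, 60.6% and 62.8% in mutant replicates 1, 2 and 3, so replicate 1 had the least methylation. At the 21 listed Bcl11b regions mutant replicate 1 was the lowest in 6, replicate 2 in 7 and replicate 3 in 7, and replicates 1 and 2 tied in 1. Over all 35439 listed regions these counts were 19801, 10240 and 5170, with 228 ties. At the 12 unlisted regions mutant replicate 3 was the highest in 9 and the lowest in 0. Over all 71676 unlisted regions it was the highest in 42223 and the lowest in 7765.

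**Figure D3:**
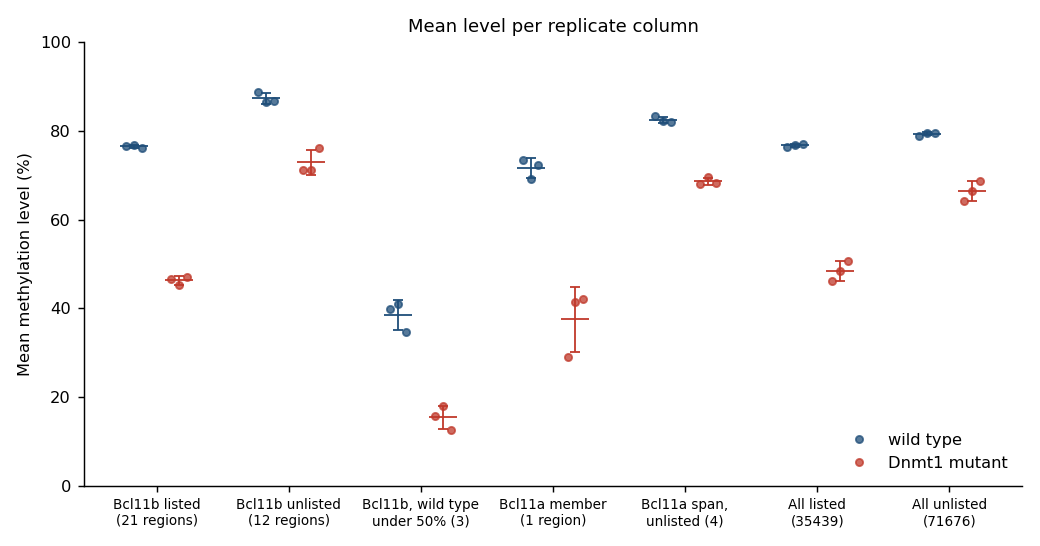
Mean methylation level (%) in each replicate column, averaged over the regions of each set. Points are replicates, horizontal marks means and bars SD (n = 3), blue for wild type and red for the Dnmt1 mutant. At the Bcl11a region 1 mutant replicate at 29.0% lies below the other two, at 41.4% and 42.0%.

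Bcl11a had a single listed region, 5.13 kb downstream of its start (chromosome 11, 24085455 to 24086196, mm10, 10 CpGs). Its levels were 29.0%, 41.4% and 42.0% in mutants and 73.6%, 69.2% and 72.3% in wild types. The genotypes did not overlap, and mutant replicate 1 was lower than the other two. The means were 37.5% ± 7.35 and 71.7% ± 2.23 (SD, n = 3 each), a difference of -34.2 points in which 52.3% of the wild-type level was kept. Of all listed regions, 18.3% differed by more. limma called this 1 region lower, as it did 93.5% of all candidate regions.

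The rest of the Bcl11a span held few tabulated regions. There were 5 candidate regions in its span, or 0.515 per 10 kb, against 33 in the span of Bcl11b, or 3.52 per 10 kb (that of the chosen regions at its 3′ side lies beyond the span, and the span adds an unchosen one at the gene start). limma called 5 of 5 lower at Bcl11a and 32 of 33 in the Bcl11b span, against 93.5% of all candidate regions. The region 64.2 kb into Bcl11a (24144458 to 24145296) had 41.5%, 30.8% and 42.6% in mutants and 56.1%, 54.5% and 58.5% in wild types. This was the least methylated of the 5 in the wild type, and its difference of -18.0 points fell short of the authors' limit of 20 points. The other 3 unlisted regions had differences of -14.6, -12.6 and -10.1 points from wild-type levels of 80.5%, 95.8% and 97.3%. Over the 4 unlisted regions the level was 68.7% ± 0.763 in mutants and 82.5% ± 0.720 in wild types (SD, n = 3 each).

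At Bcl11b the listed region nearest to the start was the one with the largest difference among the candidate regions of the span. The same held for the only listed region of Bcl11a. There it follows from the listing, as the other 4 regions of the span fell short of 20 points. At Bcl11b an unlisted region lay nearer, 0.849 kb upstream of the start, with a difference of -3.96 points. In the wild type the listed regions nearest to each start had 73.1% at Bcl11b and 71.7% at Bcl11a, which differ by less than the SD of the first, 6.51. In the mutant they had 16.6% ± 1.97 and 37.5% ± 7.35, and the highest Bcl11b replicate, 18.8%, was below the lowest Bcl11a replicate, 29.0%. The difference between the genes rests on 1 region each, chosen for its loss, and was not tested.

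By the number of listed regions the genes stood far apart. Bcl11b had 21 within 5 kb, and 84 of the 10681 genes with any had more. Bcl11a had 1, as did 51.4% of those genes. A further 7 listed regions were assigned to Bcl11b by the authors at larger distances. The hypermethylated list held 0 regions of either gene. Nothing is read from this, as limma called only 0.0485% of all candidate regions higher.

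Around the start of Bcl11b, outside the chosen regions, the DNA was little methylated in both genotypes. In the region 0.849 kb upstream of the start (108003985 to 108004541) the levels were 0.556%, 0.556% and 10.9% in mutants and 6%, 10.4% and 7.44% in wild types, so the genotypes overlapped. The regions 2.73 kb (108006024 to 108006263) and 3.22 kb upstream (108006525 to 108006749) had 1.33% ± 0.619 and 2.59% ± 1.61 in mutants and 4.81% ± 2.28 and 15.6% ± 1.44 in wild types (SD, n = 3 each). limma called 1 of these 3 lower, the one at 3.22 kb, against 93.5% of all candidate regions.

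Just beyond the limit of 5 kb lay a listed region 6749 bp from Bcl11b in the authors' table, on the upstream side (108010350 to 108010907, 12 CpGs). Its levels were 4.55%, 11.5% and 7.82% in mutants and 64.5%, 48.7% and 54.0% in wild types, a difference of -47.8 points, larger than in all but 1 of the chosen regions. Inside the limit, the chosen region farthest from the gene in the authors' table lay 1041 bp beyond the 3′ end. This region (107909006 to 107909362) had 55.5% ± 1.14 and 80.8% ± 0.891 (SD, n = 3 each). Near the authors' limit of 20 points, the region at 23.7 kb was listed with a difference of -20.2 points in the replicate columns (-21.0 in the authors' deposited table). The region at 54.8 kb (107948292 to 107948855) differed by -20.7 points in the replicate columns and was not listed.

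Other genes had listed regions with nearly the same mean levels in all 6 columns. Among 2008 other genes with at least 4 listed regions, those nearest to Bcl11b by Euclidean distance over the 6 column means were Apba2 (12 regions, distance 1.74 points), the histamine receptor gene Hrh1 (10 regions, 2.49 points) and the spectrin gene Sptbn4 (10 regions, 2.74 points). Apba2 had 46.9% in mutants and 76.0% in wild types, as means over its listed regions. Nearest to the Bcl11a region were Map3k6 (5 regions, 5.18 points) and the interleukin receptor gene Il11ra1 (8 regions, 6.99 points), which has near-identical copies in the mouse genome that can share reads.

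Most genes on lists drawn up around BCL11B and BCL11A had a region called lower, and nearly all candidate regions of the series were called lower. In the T cell commitment circuit, 16 of 20 genes had a candidate region within their span or 5 kb to either side, 15 had a region called lower by limma and 0 one called higher. Of the regions at these genes 193 of 205 (94.1%) were called lower, against 93.5% of all candidate regions, with a median difference of -16.4 points against -16.6. In Runx3, which encodes a regulator of cytotoxic T cells, the region of largest loss had 41.6% ± 3.41 in mutants and 85.5% ± 0.474 in wild types (SD, n = 3 each; chromosome 4, 135121158 to 135121597). Tcf7, which encodes the Notch target TCF1, held 14 candidate regions with a median difference of -18.2 points, and Gata3, another early T cell regulator, held 3 with -10.3 points.

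Of the chromatin complexes that BCL11 proteins recruit, the NuRD and BAF complexes among them, 19 of 25 genes had a candidate region. All 19 had one called lower, at 191 of 201 regions (95.0%) with a median of -15.0 points. For this list and those that follow, the values over all candidate regions were 93.5% called lower and a median of -16.6 points. The share of genes with a region called lower was not counted over all genes. Beside Smarcb1, a core BAF subunit gene, a region within 5 kb had 12.4% ± 6.45 in mutants and 79.6% ± 4.90 in the wild type (chromosome 10, 75926217 to 75926803; SD, n = 3 each), whereas the median over the 7 regions of its window was -17.5 points. Among globin genes and their regulators, 8 of 13 genes had a candidate region and 7 had one called lower, at 60 of 69 regions (87.0%) with a median of -16.1 points. Zfpm1, which encodes the GATA1 cofactor FOG1, held 43 of these 69 regions. Of 16 marker genes of other marrow cells that a lineage-negative preparation could hold, 12 had a candidate region and 12 had one called lower, at 46 of 51 regions (90.2%) with a median of -16.1 points. These markers were read as DNA methylation, not as transcripts, and their part in the levels at Bcl11b and Bcl11a was not tested.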

How the data were processed

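Methylation sequencing was done on 12 samples, 6 per genotype, as paired reads of 100 bp, per the labels' protocols. The authors deposited a level per region as a fraction between 0 and 1 in 6 columns (build mm10, per the submitters' processing notes). They also deposited a list of hypomethylated regions. The names of both give metilene as the caller. Which aligner and methylation caller were used, and whether both kits were merged, is not stated in the sources used here. The deposited list gives group means as a fraction, their difference as a score, CpG numbers, a q-value and an adjusted p-value. No coverage accompanies the levels, so depth is unknown, no interval for counting error is given and no coverage minimum was applied.

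Levels were multiplied to percent, and differences are mutant minus wild type. Nothing in the labels says that replicates came from separate animals, so any p measures only the spread between these samples. limma 3.58.1 in R 4.3.3 was fitted to all 107115 candidate regions with Benjamini-Hochberg adjustment, and was tested on simulated data. The simulated noise was set from the wild-type spread in both genotypes, whereas the mutant spread was larger at 71.2% of candidate regions. That run therefore cannot show how the calls behave when the spreads are unequal. The numbers in replicate names were not used as pairs in the main fit. Deviations from the group means correlated by 0.00489 to 0.0500 between same-numbered columns of the genotypes. Between columns of other numbers they correlated by -0.0507 to 0.0117. These values cannot tell whether same-numbered samples were handled as pairs. Regions were named by size of difference, CpG number, wild-type level and nearness to the start, and members, lists and rules were chosen with earlier results of these data known. The planned use of exons was dropped because no exon annotation was used here. Gene spans and promoter sequences came from RefSeq on GRCm38.p6, where all listed genes matched. Alternatives covered the scale, the prior, the replicate block, the weighting, the members and leaving out each replicate. Other tools were matplotlib 3.10.9, scipy 1.17.1, pandas 2.3.3 and Python 3.11.15.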

Additional observations from a re-analysis of the deposited data

How the results depend on the processing

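The mean differences at Bcl11b and Bcl11a kept their sign under all alternatives that were run for them. This was fixed in advance, as every mutant replicate column lay below every wild-type one in each chosen region. The mean difference at Bcl11b, -24.5 points over 33 regions, was -22.5 points with regions weighted by length, -30.2 with the 21 listed regions, from the replicate columns or from the authors' group means, -30.5 with the 20 listed regions inside the gene span, and -38.8 with the 7 listed regions that had a metilene q under 0.05. Leaving out each replicate in turn gave -25.3 to -23.9 points at Bcl11b and -36.5 to -30.0 at Bcl11a, and 31 to 33 Bcl11b regions called lower. With the replicate block, limma called 33 Bcl11b regions and the 1 Bcl11a region lower, and 99903 of all 107115 candidate regions. Nothing is read from the counts of chosen regions, which were selected on this contrast. The mean of differences between same-numbered columns was -24.5 ± 1.92 points at Bcl11b and -34.2 ± 9.04 at Bcl11a (SD, n = 3). Over all candidate regions the calls of lower regions went from 100125 to 36834 when a difference of at least 20 points was required, and to 95623 to 100046 without 1 replicate. The Bcl11a region had a metilene q of 0.66, so it gave no value under that limit.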
